A study of Mus musculus with 4 samples.

Results

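The replication-dependent histone genes were taken from the deposited tables as every row whose gene symbol starts with Hist1h, Hist2h, Hist3h or Hist4h. They were grouped by the class written in the symbol, that is the linker histone H1 or the core histones H2A, H2B, H3 and H4. The total RNA tables held 68 such symbols in 75 entries, of 24850 entries with a gene symbol. The polyA tables held 69 symbols in 78 entries, of 24992 entries, the additional symbol being Hist1h2al. H1 had 6 symbols, H2A 18 in the total RNA tables and 19 in the polyA tables, H2B 19, H3 12 and H4 13. Symbols of the Hist1 cluster lie on mouse chromosome 13, those of Hist2 on chromosome 3, those of Hist3 on chromosome 11 and the single symbol of Hist4 on chromosome 6.

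All 4 libraries came from C2C12, an immortal mouse myoblast line that leaves the cell cycle and fuses into myotubes once it is moved to differentiation medium (DM, low in horse serum). Total RNA depleted of rRNA was sequenced from myoblasts (MB, DM -24 h) and from myotubes (MT, DM 72 h), neither of them transfected as far as the labels say. PolyA-selected RNA was sequenced from cells at DM 48 h that had received 100 nM of an siRNA against hnRNPL (si-hnRNPL) or of a scrambled control (si-NC). HnRNPL is an RNA-binding protein that takes part in splicing and transcription. With 1 library per condition, none of the differences below has a replicate check, and p-values were not computed. The labels give the cell type of all 4 libraries as myoblasts, whereas Myog, the transcription factor of terminal muscle differentiation, stood at 0.695 FPKM in MB, 251 in MT, 249 in si-hnRNPL and 175 in si-NC. Hnrnpl itself stood at 111 FPKM in MB, 63.0 in MT, 85.9 in si-hnRNPL and 95.1 in si-NC, and its mRNA in the knockdown library was 90.4% of the control.

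Histone genes of these clusters are copied with the genome. Their mRNAs are made mainly in S phase, carry no introns and end in a conserved stem-loop instead of a polyA tail. The stem-loop is bound by Slbp and cleaved with the help of the U7 snRNP, and the mRNAs are degraded when DNA synthesis stops. A minority of the genes can also yield polyadenylated mRNA, particularly in cells that have stopped dividing.

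The stem-loop was searched as letters in the mm9 genome: 6 bases starting with GG, a loop of 4 bases starting with TT, and 6 bases complementary to the first arm. Within 100 bases after the stop codon it was present in 61 of 67 members with an annotated coding sequence (91.0%), and in 10 of 22546 other genes (0.0444%). When the whole locus and 30 bases on each side were searched, 63 of 69 symbols held it. Hist1h2al, Hist1h2an, Hist1h3g, Hist1h4a, Hist2h2be and Hist3h2bb-ps did not, which says only that these exact letters are not in the windows. The sequences below are shown because, Hist1h1t apart, they span the range from members nearly absent from polyA RNA to members well represented in it. Hist1h1t was low in total RNA as well, at 0.398 FPKM in MB and 0.199 in MT. The 2 arms of the stem are in capitals, the loop and 5 flanking bases on each side in lower case.
Hist1h1a (chr13:23856256-23856281, mm9, plus strand): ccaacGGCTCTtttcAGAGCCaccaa
Hist1h1c (chr13:23831376-23831401, mm9, plus strand): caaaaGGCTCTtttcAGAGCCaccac
Hist1h1t (chr13:23788389-23788414, mm9, plus strand): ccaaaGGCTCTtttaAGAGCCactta
Hist3h2a (chr11:58768669-58768694, mm9, plus strand): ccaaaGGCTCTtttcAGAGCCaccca
Hist2h2ac (chr3:96024336-96024361, mm9, minus strand): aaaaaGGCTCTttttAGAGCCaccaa
Hist1h2bc (chr13:23776511-23776536, mm9, plus strand): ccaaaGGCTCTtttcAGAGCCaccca
Hist2h2bb (chr3:96074089-96074114, mm9, plus strand): caaaaGGCTCTtttcAGAGCCacttt
Hist1h3i (chr13:21874784-21874809, mm9, minus strand): caaaaGGCTCTtttcAGAGCCccctc
Hist1h4d (chr13:23673814-23673839, mm9, plus strand): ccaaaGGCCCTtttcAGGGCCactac
Hist1h4i (chr13:22132830-22132855, mm9, minus strand): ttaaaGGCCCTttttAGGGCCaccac
The arms separated the H4 genes from the rest. Of the 12 H4 symbols with a stem-loop, 8 had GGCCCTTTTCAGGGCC, 2 had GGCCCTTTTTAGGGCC and 2 had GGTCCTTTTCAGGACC, none of which occurred in another class. The other 4 classes used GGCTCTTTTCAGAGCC in 41 symbols, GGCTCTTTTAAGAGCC in 9 and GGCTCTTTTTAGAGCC in 1.

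The classes differed in how alike their members are, which bears on how reads could be divided among them. All 13 H4 symbols with a coding sequence encoded 1 protein and the 11 H3 symbols encoded 2. The 19 H2A symbols encoded 10 proteins, the 17 H2B symbols 10 and the 6 H1 symbols 6. At the level of the coding sequence most copies could still be told apart. The 13 H4 symbols had 12 distinct coding sequences, the 11 H3 symbols 11, the 19 H2A symbols 17 and the 17 H2B symbols 16. Values of single genes are nevertheless less certain than the sums over a class. Some entries also overlap one another, among them Hist1h2ao with Hist1h2ap, Hist1h4m with Hist1h4n, Hist2h3c1 with Hist2h3c2 and Hist2h2aa1 with Hist2h2aa2. In the polyA libraries Hist1h2bq also overlaps Hist1h2br. The split of reads between such entries is uncertain.

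In total RNA the histone mRNAs of every class were several-fold lower in MT than in MB. Summed over all members, FPKM (fragment numbers scaled by transcript length and library size) were 14168 in MB, 3366 in MT, 230 (229.7) in si-hnRNPL and 162 (161.9) in si-NC. MT was lower than MB by 4.21-fold, with a counting interval of 4.15 to 4.27 that covers error within the libraries only. By class the fall was 4.19-fold for H1, 4.65-fold for H2A, 4.39-fold for H2B, 4.63-fold for H3 and 3.67-fold for H4. The counting interval of H4 (3.62 to 3.73) overlapped that of no other class. Without Hist1h1c the H1 fall was 4.99-fold, and with only entries of status OK the H2A fall was 5.38-fold. The core classes H2B and H4 held the largest parts of the members' FPKM in MB, 26.6% and 27.0%, and H3 the smallest, 13.8%. The Hist1 cluster held 80.1% of the FPKM in MB and 80.4% in MT. How large the fall is depends on the scale. As a share of the FPKM of all named entries it was 2.01-fold, but Mir3113 at 182537 FPKM and Mir5098 at 54330 FPKM (54329.9) took much of that total in MB and were listed at 0 in MT. Without these entries the share fell 3.24-fold, a setting chosen after seeing the data.

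Of the 75 entries, 65 fell from MB to MT by 0.58 or more in log2((FPKM + 1) ratio), the fold of 1.5 used as threshold, against 13.7% of all named entries. No member rose by as much, against 7.81% of named entries. That is 86.7% of the entries, with a median log2 change of -2.09 where the median of all named entries was 0 and that of entries with at least 1 FPKM in both libraries was -0.23. In 61 entries the 95% interval in MT lay below that in MB without overlap, against 27.7% of named entries. In bulk RNA, fewer cycling cells and less histone mRNA per cell cannot be told apart. Of the 10 entries that stayed within the threshold, 8 were under 2 FPKM in both libraries and the other 2 were the overlapping entries of Hist1h2ap.

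**Figure D1:**
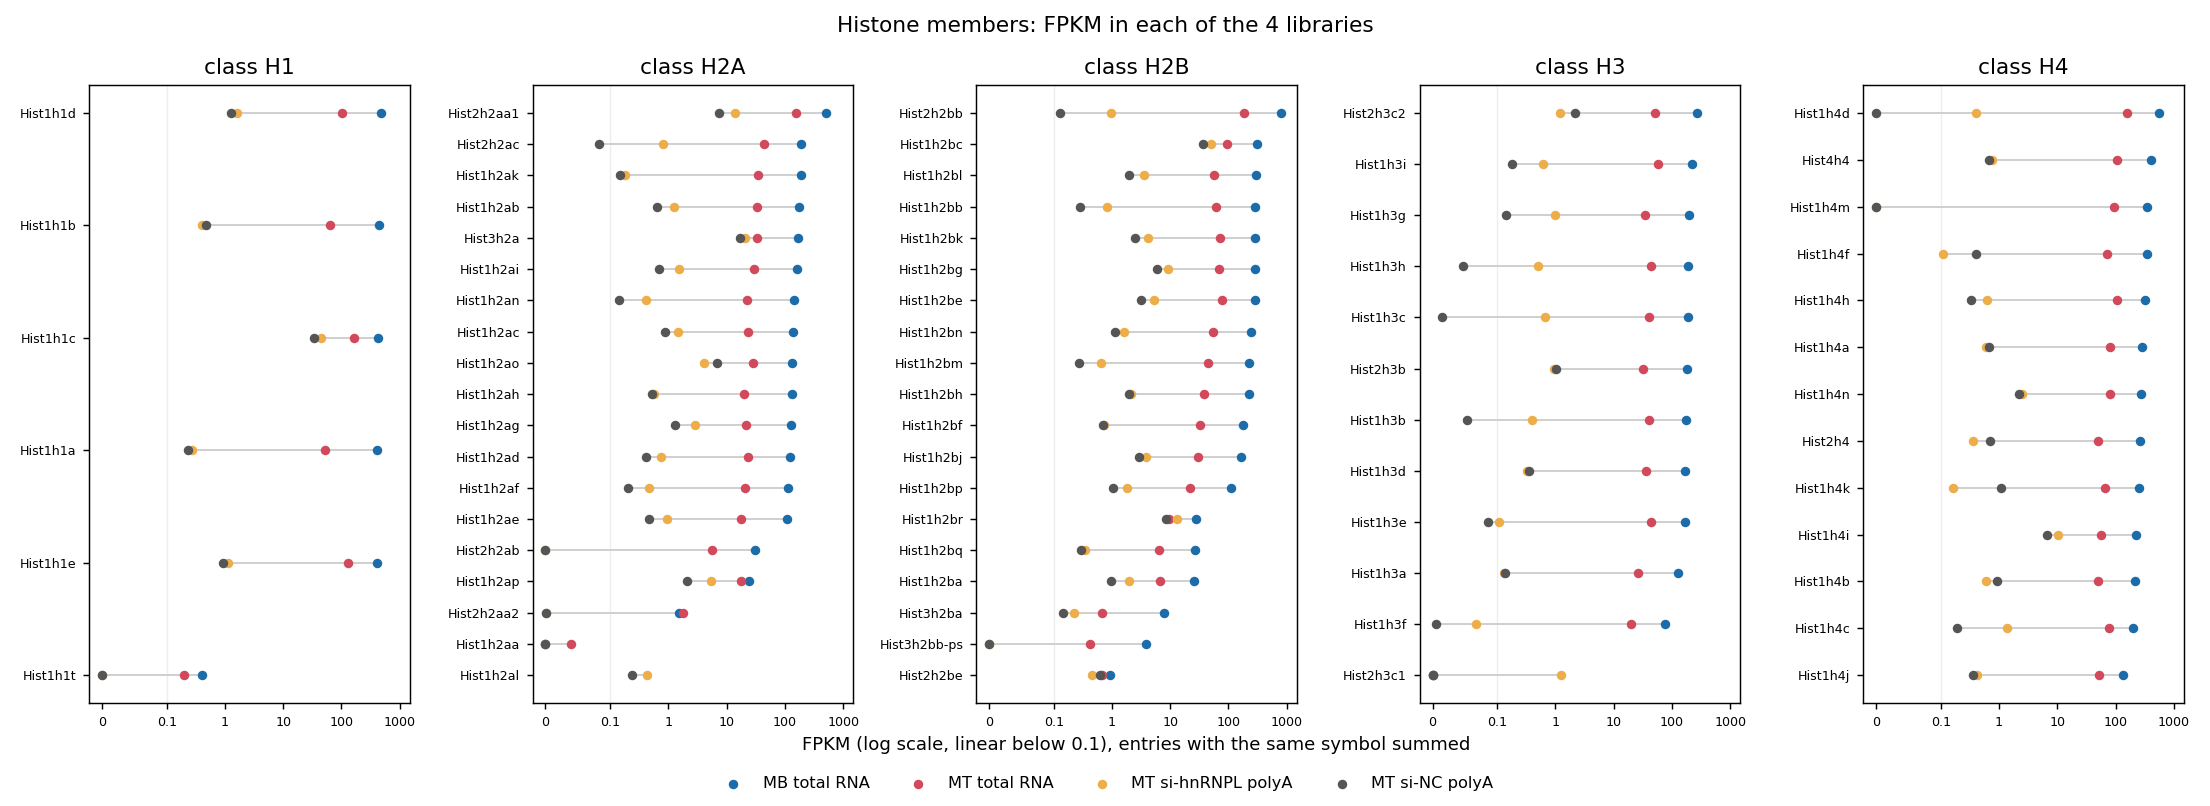
FPKM of each histone symbol in the 4 libraries (x axis, log scale, linear below 0.1; entries with the same symbol summed), in 1 panel per class and ordered by the value in MB. MB (blue) lies to the right of MT (red) in nearly every row, and the polyA libraries (yellow, si-hnRNPL; grey, si-NC) lie far to the left except for a few symbols such as Hist1h2bc at 36.3 FPKM in si-NC.

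H1 proteins bind the linker DNA between nucleosomes, and among the 5 members of this class with a mean of 100 or more implied fragments the fall ran from 2.54-fold to 7.81-fold. Hist1h1a stood at 408 FPKM in MB and 52.2 in MT, with 0.272 in si-hnRNPL and 0.236 in si-NC. Hist1h1b stood at 436 in MB and 62.6 in MT, with 0.411 in si-hnRNPL and 0.480 in si-NC. The falls were 7.81-fold (counting interval 7.50 to 8.14) and 6.96-fold, the largest of all members on the log2((FPKM + 1) ratio) scale, whereas by the plain ratio the low Hist3h2ba and Hist3h2bb-ps fell more. Hist1h1d went from 475 to 101 FPKM, a 4.72-fold fall, and was at 1.59 in si-hnRNPL and 1.28 in si-NC. Hist1h1e went from 407 to 130, a 3.13-fold fall, and was at 1.13 in si-hnRNPL and 0.934 in si-NC. Hist1h1c, which encodes the H1.2 subtype, fell least of these 5, from 424 to 167 FPKM or 2.54-fold (2.47 to 2.60). It was also the member that differed most from its class in polyA RNA, at 43.8 FPKM in si-hnRNPL and 33.5 in si-NC. In MB the 5 genes lay within 407 and 475 FPKM, whereas in MT they ran from 52.2 to 167. Hist1h1t, the H1 of male germ cells, was at 0.398 FPKM in MB and 0.199 in MT and was listed at 0 in both polyA libraries.

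H2A forms a dimer with H2B, and the fall of the H2A sum, 4.65-fold (4.37 to 4.96), had an interval that overlapped those of H2B and H3. Without the entries marked by Cufflinks as low in data the H2A sum fell 5.38-fold, which lies above these intervals. Leaving out those marked as low in data, entries with a mean of 100 or more implied fragments fell between 4.43-fold (Hist2h2ac) and 6.62-fold (Hist1h2ah). Their median was 5.44 over 15 entries. Hist1h2ah went from 131 to 19.8 FPKM, and was at 0.557 in si-hnRNPL and 0.532 in si-NC. Hist2h2ac went from 192 to 43.4 FPKM, and was at 0.797 in si-hnRNPL and 0.0830 in si-NC. Hist1h2ak went from 191 to 34.9, a 5.48-fold fall, with 0.179 in si-hnRNPL and 0.148 in si-NC. These genes were high only in total RNA. The symbol Hist2h2aa1 has 2 entries, marked by Cufflinks as low in data in MB and MT but not in the polyA libraries, whose FPKM summed to 509 in MB, 153 in MT, 13.7 in si-hnRNPL and 7.48 in si-NC, a 3.33-fold fall from MB to MT. Together with the overlapping Hist2h2aa2, itself at 1.52 in MB and 1.75 in MT, the fall was 3.30-fold. Hist3h2a, which lies with H2B neighbours on chromosome 11, went from 165 to 32.8 FPKM, a 5.03-fold fall (4.69 to 5.39), and was at 20.9 in si-hnRNPL and 16.6 in si-NC. Hist2h2ab was lower throughout, at 30.8 FPKM in MB and 5.67 in MT, and was listed at 0 in both polyA libraries. Hist1h2aa, a testis-type H2A, was listed at 0 in MB and stood at 0.0391 in MT. Hist1h2ap, at 23.9 FPKM in MB and 17.6 in MT over its entries, shares its 3′ end with Hist1h2ao, at 135 and 28.5. The FPKM of both symbols summed to 159 in MB and 46.0 in MT, 3.44-fold lower.

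H2B held the member with the highest FPKM of all. Hist2h2bb stood at 790 FPKM in MB and 185 in MT, a 4.27-fold fall (4.15 to 4.41), but at 0.967 in si-hnRNPL and 0.127 in si-NC. Hist1h2be went from 285 to 76.2 FPKM, 3.73-fold, and was at 5.18 in si-hnRNPL and 3.14 in si-NC. Hist1h2bg went from 287 to 68.6, 4.18-fold, and was at 8.996 in si-hnRNPL and 5.92 in si-NC. Hist1h2bc fell less than these, and went from 304 to 94.0 FPKM, 3.23-fold (3.07 to 3.40), and was at 50.9 in si-hnRNPL and 36.3 in si-NC. Hist2h2bb was above Hist1h2bc in both total RNA libraries and below it in both polyA libraries. At the low end, Hist3h2ba went from 7.74 to 0.680 FPKM, the highest fold among entries with a mean of 100 or more implied fragments (11.4-fold), and Hist3h2bb-ps, a pseudogene, from 3.87 to 0.412. Hist1h2ba, the H2B of testis, stood at 25.9 FPKM in MB, 6.70 in MT, 1.95 in si-hnRNPL and 0.949 in si-NC, a 3.87-fold fall from MB to MT. Hist2h2be was near 1 FPKM in all libraries, at 0.908 in MB, 0.675 in MT, 0.446 in si-hnRNPL and 0.613 in si-NC. Its annotated exons span 2618 bases against a median of 530 over the members, and the stem-loop letters were not found in its locus.

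H3, together with H4, forms the tetramer at the centre of the nucleosome, and its members moved closely together. Entries with a mean of 100 or more implied fragments fell between 3.73-fold and 5.61-fold. Hist1h3i went from 224 to 56.4 FPKM, 3.96-fold, and was at 0.604 in si-hnRNPL and 0.180 in si-NC. Hist1h3h went from 191 to 43.3, 4.42-fold, and was at 0.491 in si-hnRNPL and 0.0467 in si-NC. Hist1h3g went from 196 to 35.0 (34.96), 5.61-fold, and was at 0.972 in si-hnRNPL and 0.141 in si-NC. Hist2h3b went from 180 (179.6) to 32.4 FPKM, 5.54-fold, and was at 0.930 in si-hnRNPL and 1.01 in si-NC. Hist2h3c2 and the overlapping Hist2h3c1 summed to 270 (269.8) FPKM in MB, 50.2 in MT, 2.45 in si-hnRNPL and 2.12 in si-NC, 5.37-fold lower in MT than in MB. In polyA RNA each H3 entry was at or below 1.26 FPKM in si-hnRNPL and 1.06 in si-NC.

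H4 had the smallest fall of the sum, and its entries ran from 2.60-fold to 5.24-fold. Hist1h4d, the highest of the class, went from 555 to 156 FPKM, 3.55-fold, and was at 0.407 in si-hnRNPL and listed at 0 in si-NC. Hist4h4, the only member on chromosome 6, went from 407 to 105, 3.88-fold, and was at 0.759 in si-hnRNPL and 0.664 in si-NC. Hist1h4h went from 317 to 107 FPKM, 2.95-fold, and was at 0.611 in si-hnRNPL and 0.333 in si-NC. Hist1h4m went from 349 to 93.4 FPKM, 3.74-fold, and was close to 0 in both polyA libraries. Its locus covers 1 entry of Hist1h4n, which was near 0 in MB and MT but at 1.22 in si-hnRNPL and 1.11 in si-NC. The split of reads between these entries is uncertain, and so are their values near 0. Hist2h4 fell most in the class, from 265 to 50.6 FPKM, and was at 0.360 in si-hnRNPL and 0.714 in si-NC. The members of H4 encode the same protein, so that the spread of folds is one between gene copies of the same product.

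**Figure D2:**
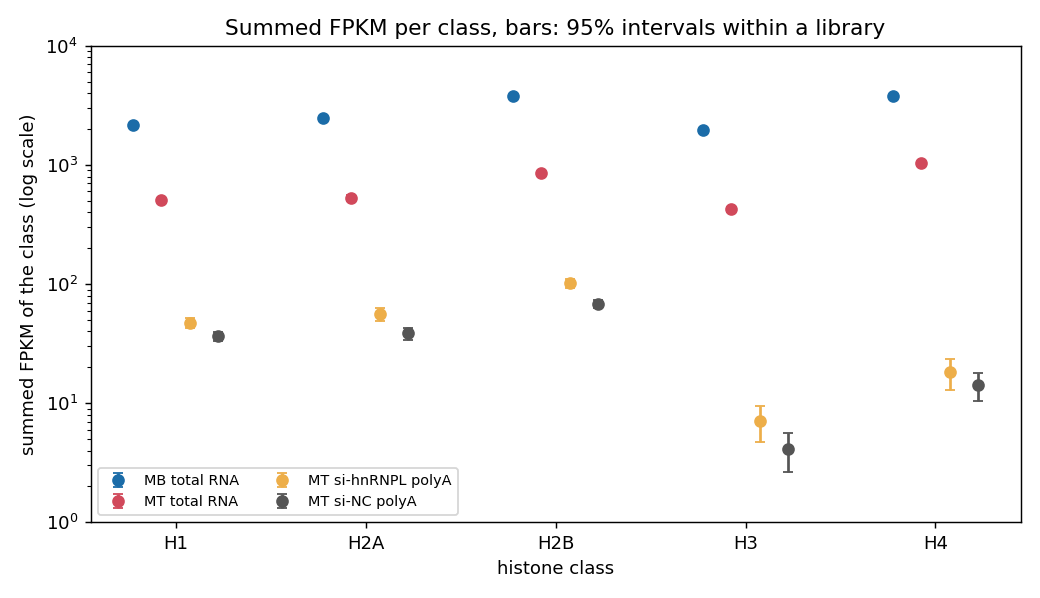
Summed FPKM of each histone class (y axis, log scale) in the 4 libraries, with 95% intervals within a library as bars. The step from MB to MT lies between 3.67-fold and 4.65-fold in every class, while the step from MT to the polyA libraries is larger for H3 and H4 than for H1, H2A and H2B.

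Many H2A and H2B genes stand head to head and share the DNA between their start sites. By the loci of the total RNA tables, 15 pairs of H2A and H2B entries were divergent with a gap of at most 305 bases, with a shortest gap of 167 and a median of 239, and no divergent pair of members of other classes was as close. Overlapping entries count more than once in these pairs. Hist1h2ac and Hist1h2bc are shown because the pair holds the H2B gene highest in polyA RNA next to an ordinary H2A gene, Hist1h2ac being named after its values were seen. The region between them (chr13:23775829-23776067, mm9, plus strand, 239 bases) has in capitals, on either strand, the letters of a TATA element (TATAAA), those of the pentamer read by NF-Y (CCAAT) and those of an octamer (ATTTGCAT).
Hist1h2ac-Hist1h2bc: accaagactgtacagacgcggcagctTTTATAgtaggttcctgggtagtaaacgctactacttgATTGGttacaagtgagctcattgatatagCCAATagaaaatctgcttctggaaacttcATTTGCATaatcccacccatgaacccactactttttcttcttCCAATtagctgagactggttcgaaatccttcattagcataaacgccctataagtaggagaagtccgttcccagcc
It held 1 TATAAA, 3 CCAAT and 1 ATTTGCAT, none of them overlapping. The H2A partner went from 135 FPKM in MB to 23.5 in MT, a 5.77-fold fall, and the H2B partner from 304 to 94.0, a 3.23-fold fall. In si-NC polyA RNA the H2A partner was at 0.861 FPKM and the H2B partner at 36.3. Leaving out pairs with Hist1h2ap, Hist2h2be or Hist3h2bb-ps and those listed at 0, the H2A entry fell more than its H2B partner in 9 of 10 pairs, and in 10 of 14 when only those listed at 0 were left out. The pairs share entries and are not independent.

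RefSeq promoters (GRCm38.p6, 250 bases before to 50 after the start) were available for 62 of 69 symbols. CCAAT on either strand was in 85.5% of the members' promoters and in 37.4% of all promoters in the table. It was in each promoter of H1, H2A, H2B and H3 but in 25% of the 12 H4 promoters. TATAAA was in 56.5% of the members' promoters against 13.6% of all. ATTTGCAT was in 22.6% against 1.74%, with 7 of 17 H2A and 7 of 17 H2B promoters and no promoter of H1, H3 or H4. A match is a description of letters, not of a bound site.

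Genes that act with the histones were lower in MT as well, to differing extents. Of 17 genes of S phase (replication factors, cyclins and the like), 16 fell, with a median log2 change of -2.26 that is close to the -2.09 of the histones. Pcna, the sliding clamp of DNA polymerase, went from 216 to 66.0 FPKM, and Mcm5, a subunit of the replicative helicase, from 74.5 to 7.17. Among 11 histone chaperones, 8 fell, with a median of -1.38. Asf1b, which hands H3-H4 dimers to the assembly factors, went from 111 to 12.6 FPKM and Chaf1b, a subunit of CAF-1, from 37.2 to 4.54, whereas Rbbp4 stood at 78.1 and 68.7. Of 18 genes of histone mRNA transcription, 3′ processing and turnover 11 fell, with a median of -0.81. Slbp, the stem-loop binding protein, went from 51.7 to 17.1 FPKM, a 3.02-fold fall that was the largest among the 11. Lsm10, a U7 snRNP subunit, stood at 19.0 (18.96) and 19.2, and Npat, the histone gene coactivator, at 9.13 and 7.41. Histone genes named outside the clusters fell in 7 of 11 cases. H2afz and Cenpa were among them, from 370 (370.5) to 119 and from 65.3 to 8.59 FPKM. H3f3a, which encodes the replacement histone H3.3, was instead at 230 (230.5) in MB and 280 (280.1) in MT. H1f0, the linker histone of resting cells, was at 53.0 and 74.1. All 7 muscle markers rose, with a median of 6.79. Of 3 testis-type members 1 fell, Hist1h2ba.

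**Figure D3:**
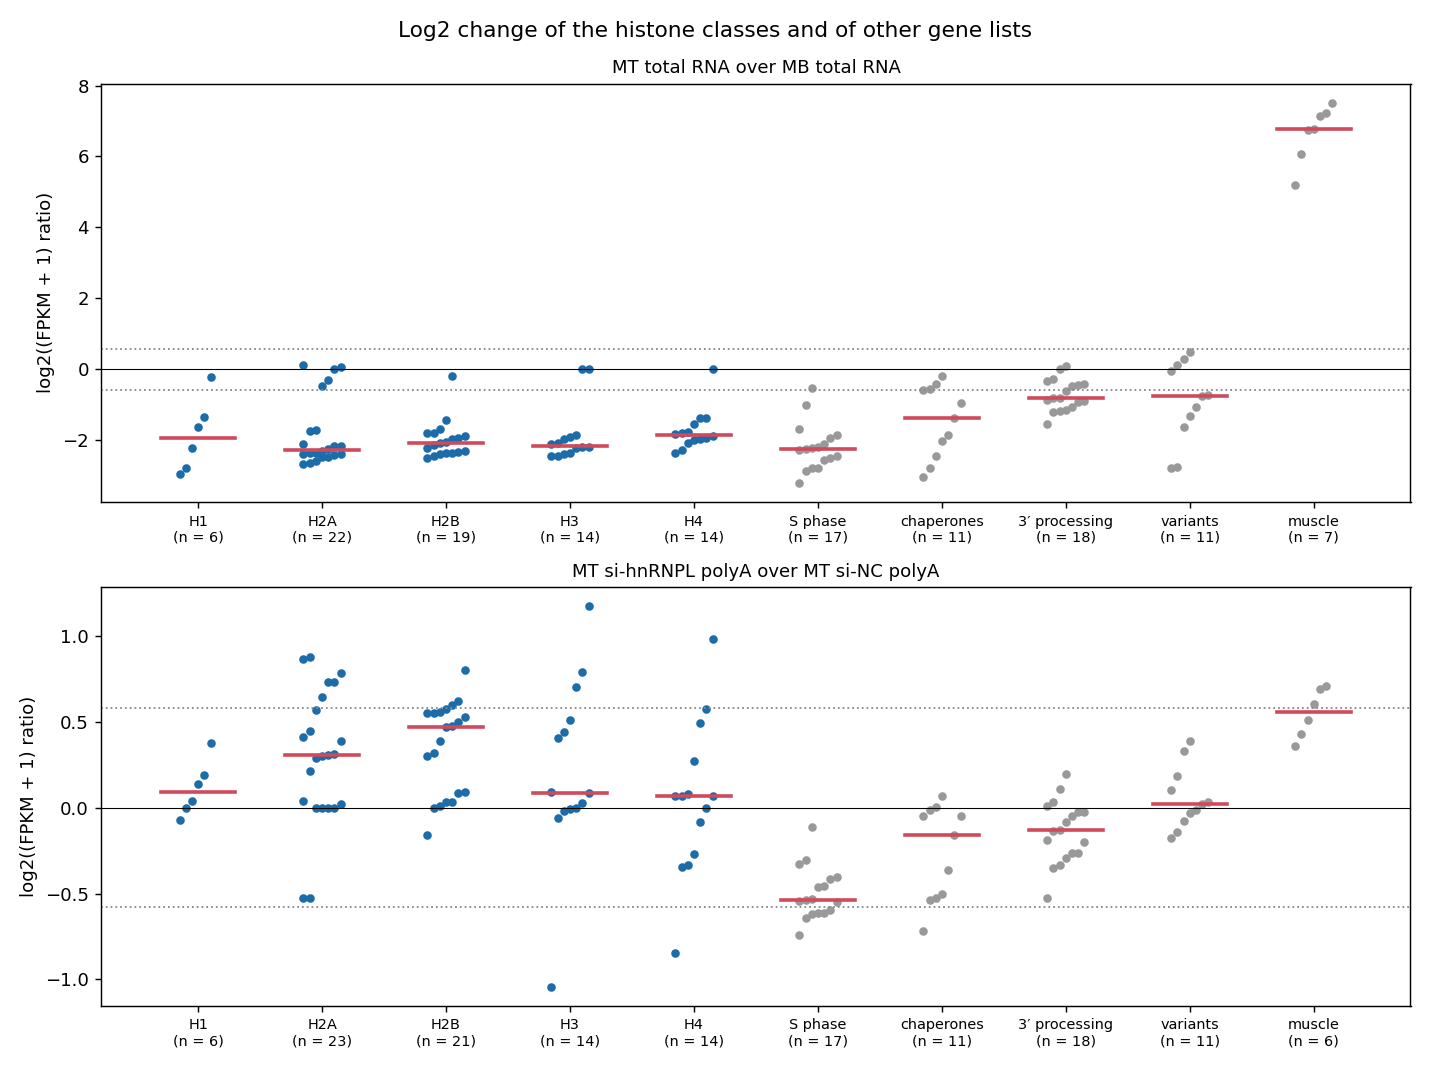
Log2((FPKM + 1) ratio) of each entry of the histone classes (blue) and of the other lists (grey), with medians as red bars and dotted lines at 0.58 and -0.58. In the upper panel (MT over MB) the histone classes and the S phase genes lie near -2 and the muscle markers at 6.79. In the lower panel (si-hnRNPL over si-NC) the S phase genes have a median of -0.54, while the medians of the histone classes lie between 0.07 and 0.47.

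In polyA RNA of cells at DM 48 h the histone members were rare, and a few symbols made up most of what was seen. The implied fragments of all members came to 0.00815% of those of named entries in si-NC and 0.0107% in si-hnRNPL, against 0.662% in MB and 0.182% in MT. Hist1h2bc, Hist1h1c and Hist3h2a held 50.3% of the members' FPKM in si-hnRNPL and 53.3% in si-NC, but 6.30% in MB and 8.74% in MT. In si-NC 8 of 69 symbols reached 5 FPKM and 47 were under 1 FPKM, where in MT 61 of 68 reached 5.

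Setting MT total RNA beside si-NC polyA RNA, the summed FPKM of the members was 20.8-fold higher in MT (19.7 to 22.0). The tables were normalized separately, and the kind of RNA, the sequencer, the hours in DM and the transfection differ between these libraries and cannot be told apart. The MT library is that of the comparison with MB, and the si-NC library that of the comparison with si-hnRNPL. Of 72 entries found at the same locus in both tables, 64 were higher in MT by 0.58 or more, against 5.29% of named entries, with a median log2 ratio of 4.24. Only Hist1h4n was lower by as much, in 1 of its 2 entries, against 12.3% of named entries. That entry was near 0 in MT and lies within the locus of Hist1h4m, which stood at 93.4 FPKM in MT and near 0 in si-NC. How reads were split between them is uncertain. The other copy of Hist1h4n stood at 79.7 FPKM in MT, and with both copies summed the symbol was higher in MT. The other lists went the other way, with 14 of 15 S phase genes, 8 of 11 chaperones, 6 of 10 histone genes outside the clusters and 5 of 15 processing genes lower in MT than in si-NC, and none higher. Muscle markers were lower in 1 of 5.

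The classes differed in this ratio more than in the fall from MB to MT. H3 was 102-fold higher in MT than in si-NC (70.8 to 147) and H4 73.2-fold (56.3 to 95.2), whereas H1 was 14.1-fold higher (12.97 to 15.3), H2A 13.7-fold (12.0 to 15.6) and H2B 12.6-fold (11.5 to 13.7). Their counting intervals do not overlap those of H1, H2A and H2B. The sizes of the H3 and H4 ratios and their order depend on the processing. H3 was 184-fold higher when only entries with status OK in both tables were summed, and from implied fragments scaled to the library H4 was 139.5-fold higher and H3 119-fold. The H1 value turned on Hist1h1c, since without it the log2 ratio rose from 3.82 to 6.89, which is 118-fold and no longer below H3 and H4. For H2B, leaving out Hist2h2bb, its highest member over both libraries, lowered the log2 ratio from 3.65 to 3.30. In si-NC, however, Hist1h2bc held 36.3 of the 68.4 FPKM of H2B, and Hist3h2a 16.6 of the 38.7 FPKM of H2A. The H2B and H2A ratios without these members were not computed. Of 61 symbols with at least 5 FPKM in MT, 59 were above 0 in si-NC. Hist1h4d (156 FPKM in MT) and Hist2h2ab (5.67) were listed at 0 in si-NC and are not in the percentages that follow. Among the 59, the level in si-NC was a median of 1.75% of that in MT, under 1% in 26 and under 5% in 47. It was 10% or more in 8 symbols, named after their values were seen except where they are named above: Hist1h1c (20.0%), Hist1h2ao (23.8%), Hist1h2ap (11.7%), Hist1h2ba (14.2%), Hist1h2bc (38.6%), Hist1h2br (87.1%), Hist1h4i (12.0%) and Hist3h2a (50.7%). For Hist1h2br the entries differ between the tables, a longer locus in total RNA and a shorter one in polyA RNA, so that its percentage compares unlike models. All 8 symbols held the stem-loop letters, as did 48 of the other 51. The stem-loop of Hist1h2bc and of Hist3h2a is letter for letter that of symbols under 1%, such as Hist1h1a with 0.451%. The entry of Hist1h2bc covers chr13:23776068-23784349, however, and so runs past its stem-loop. Annotated exons span 1560 bases in Hist1h1c, 1990 in Hist3h2a and 736 in Hist1h2bc, against a median of 530 over the members. Hist1h1d, with 3821 bases, was at 1.27%. The part of locus and exon length in these percentages was not tested. Hist1h4i, at 55.3 FPKM in MT, 10.4 in si-hnRNPL and 6.63 in si-NC, was the H4 symbol highest in polyA RNA and has the rarer loop shown above. Hist2h4 has the same arms and loop but was at 1.41%.

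Between the polyA libraries, histone members tended to be slightly higher with si-hnRNPL than with si-NC, from few fragments. The summed FPKM of the members were 230 (229.7) in si-hnRNPL and 162 (161.9) in si-NC, a ratio of 1.42 (1.31 to 1.54). By class the ratio was 1.30 for H1 (1.15 to 1.47), 1.44 for H2A (1.21 to 1.71), 1.48 for H2B (1.32 to 1.67), 1.72 for H3 (1.05 to 2.83) and 1.28 for H4 (0.863 to 1.89). The interval of H4 includes 1. Single members decide the H3 and H4 values, since without Hist2h3c2 the H3 ratio was 2.94 and without Hist1h4i the H4 ratio was 1.03. Of 78 entries, 13 rose by 0.58 or more, against 0.688% of named entries, and 2 fell, against 0.416%, but only 29 entries reached a mean of 1 FPKM. Counting any difference, 61 were higher in si-hnRNPL and 13 lower, against 8280 higher and 8486 lower of 24991 named entries. The number called rests on low values. With at least 10 implied fragments in the mean of both libraries, a setting chosen after seeing the data, 22 entries were left. Of these 19 were higher, 4 rose and 0 fell. The same shares at 10 fragments were not computed over the named entries. Of 11089 named entries with at least 1 FPKM in both libraries, 5298 were higher, 1.14% rose and 0.758% fell. Over all 78 entries, with a threshold of 2-fold, 1 entry rose (of Hist2h3c1) and 1 fell (of the overlapping Hist2h3c2).

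The leading members each differed by less than the threshold. Hist1h2bc stood at 50.9 FPKM in si-hnRNPL against 36.3 in si-NC, a ratio of 1.41 (1.23 to 1.61). In the same order, Hist1h1c stood at 43.8 and 33.5, a ratio of 1.31 (1.15 to 1.49), and Hist3h2a at 20.9 and 16.6, a ratio of 1.26 (0.978 to 1.62). Without these 3 symbols the sums were 114 (114.1) FPKM in si-hnRNPL and 75.5 in si-NC. The intervals of 4 entries lay above those in si-NC without overlap, against 6.57% of named entries, namely Hist1h1c, Hist1h2bc, 1 of the entries of Hist2h2aa1 (4.59 to 8.64 FPKM) and 1 of Hist2h3c1. That of 1 entry lay below, against 9.18%, namely Hist2h3c2. These H3 entries occupy the same locus and moved in opposite ways, from 0.000662 to 1.26 FPKM and from 1.06 to 0.000340, while the FPKM of both symbols over all entries summed to 2.12 in si-NC and 2.45 in si-hnRNPL. The same holds for Hist1h2ap, which had the largest rises by the rule (1.03 to 2.74 and 1.03 to 2.71), and Hist1h2ao, which had the largest decreases (3.40 to 2.05 in each copy). Their sum was 8.85 in si-NC and 9.55 in si-hnRNPL.

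**Figure D4:**
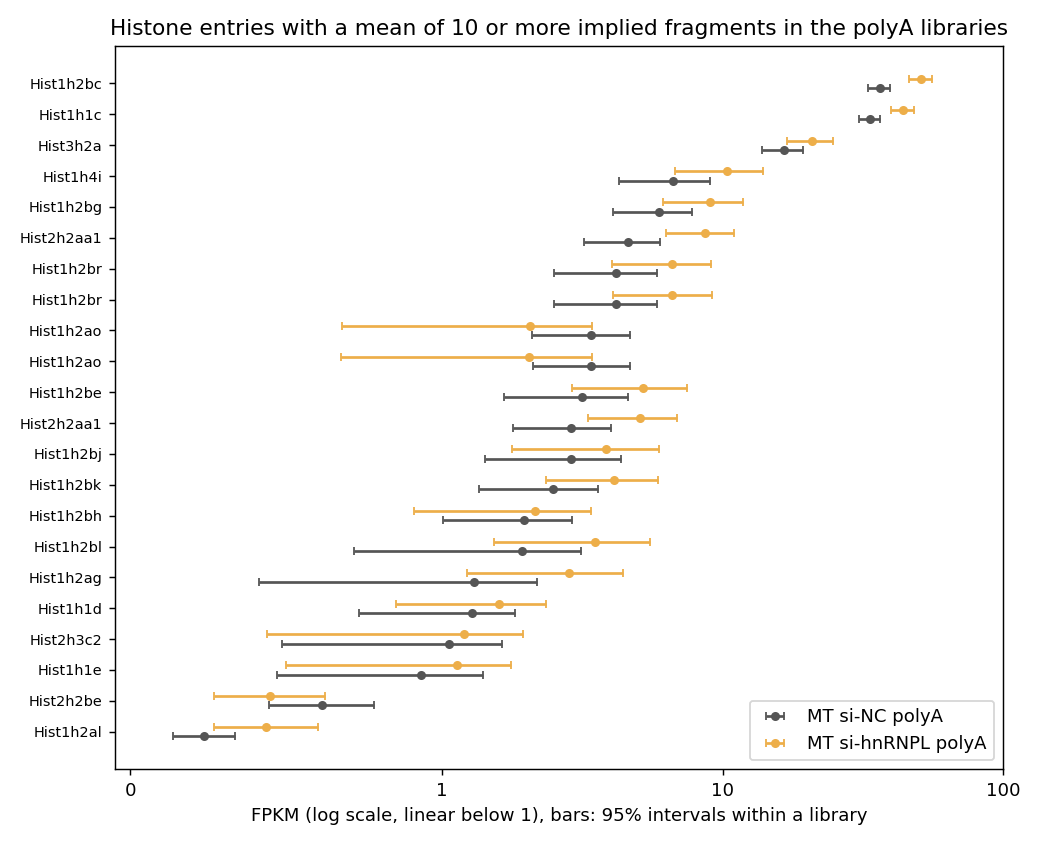
FPKM (x axis, log scale, linear below 1) of the 22 histone entries with a mean of 10 or more implied fragments in the polyA libraries, with 95% intervals within a library as bars. The point of si-hnRNPL (yellow) is to the right of si-NC (grey) in 19 of 22 rows, and the bars overlap in all but 3.

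Other measurements moved with this difference. Protein-coding genes other than histones that have exons under 1000 bases and an exon GC content of 55% or more, at a mean of at least 1 FPKM, were higher in si-hnRNPL in 107 of 118 cases (90.7%), with a median log2 change of 0.23, against -0.01 over 9917 protein-coding genes. The histone entries at a mean of at least 1 FPKM were higher in 27 of 29 cases (93.1%), with a median of 0.48. Of the members 53 of 67 had exons under 1000 bases and 47 of 67 an exon GC content of 55% or more. Centred on these short GC-rich genes, a setting chosen after seeing the data, 4 members rose and 4 fell and the ratio of sums was 1.21. The part of transcript length, GC content and depth in the difference was not tested. S phase genes were lower with si-hnRNPL, with 6 of 17 past the threshold and a median of -0.54. Ccne2, a cyclin of S phase entry, stood at 11.04 FPKM in si-NC against 6.87 in si-hnRNPL, and Mcm5 at 19.5 and 12.1. Chaf1b was the only histone chaperone of 11 to fall, from 9.03 to 5.11 FPKM. Of the 18 processing genes and of the 11 histone genes outside the clusters, none passed the threshold, Slbp being at 34.8 in si-NC and 27.0 in si-hnRNPL. Of 6 muscle markers 3 rose, among them Ckm from 45.0 (44.97) to 74.3 FPKM.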

How the data were processed

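The 4 libraries, 1 for each condition, were total RNA (MB, MT) or polyA RNA (si-hnRNPL, si-NC). Reads under 36 bp were dropped by the authors, who used TopHat (v2.0.13) for alignment to mm9 and Cufflinks (v2.1.1) for abundance. The deposited FPKM come with the bounds of a 95% interval, the locus and a status flag. The annotation version is not given in the sources used here, nor is how reads of near-identical copies were divided. The total RNA libraries were strand specific per the labels.

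Changes were computed as log2((FPKM + 1) ratio), which understates the change of low genes, and called at 0.58 or more, since no test is possible with 1 library per condition. Entries were matched on symbol and locus, and failed estimates were left out. Sums over a class carry intervals with the Cufflinks bounds added in quadrature. A fragment number was implied from each interval as N = (2 x FPKM / (upper bound - FPKM)) squared, in all 5.89e+07 for the named entries of MB, 5.25e+07 for MT, 1.46e+07 for si-hnRNPL and 2.13e+07 for si-NC. These intervals reflect only the error of counting and read assignment inside a library.

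The text names, in each class, the 4 members with the highest FPKM summed over the libraries, the 3 largest rises and falls per comparison at a mean FPKM of at least 1, members outside Hist1 that reach 1 FPKM, testis-type members and examples of the lists. Members and lists were chosen with earlier results of these data known. Stem-loops, coding sequences, exon lengths and GC contents came from mm9 with GENCODE vM1, and promoters from RefSeq. Python 3.11.15, numpy 2.4.6, pandas 2.3.3 and matplotlib 3.10.9 were used, and the calculation was tested on simulated data.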

Additional observations from a re-analysis of the deposited data

How the results depend on the processing

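No paired analysis was possible because each condition has 1 library and the labels carry no replicate numbers, and no library could be left out. From MB to MT, the number of members that fell stayed between 62 and 66 under 7 alternatives, and 1 member rose with a pseudocount of 0.01. The log2 ratio of the sums, -2.07, was -1.005 as a share of the FPKM of all named entries, -1.70 without Mir3113 and Mir5098 in that total (chosen after seeing the data), -1.85 when centred on the median of named entries and -1.86 from implied fragments scaled to the library. Between si-hnRNPL and si-NC, the 13 that rose became 36 with a pseudocount of 0.1 or 0.01, 1 with a fold of 2, 7 with a mean FPKM of at least 1, 4 when centred on short GC-rich genes and 4 with at least 10 fragments. The 2 that fell became 6, 7, 1, 0, 4 and 0 in the same order, the pseudocounts counted apart. The cause of these shifts beyond the filters themselves was not tested. The log2 ratio of the sums, 0.51, was 0.39 as a share of all named FPKM and 0.27 when centred on short GC-rich genes. For MT total RNA over si-NC polyA RNA, the 1 entry that was lower was 0 with a mean FPKM of at least 1 or with entries of a symbol summed. The log2 ratio of the sums, 4.38, was 4.86 as a share of named FPKM, 4.599 when centred, 4.64 without Hist1h1c and 4.48 from fragments scaled to the library. No sum of all members or of a class changed direction.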
